A study of Mus musculus with 6 samples.

Results

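This report describes 10 genes of bone morphogenetic protein (BMP) signalling in sorted bone marrow stroma: 6 ligands (Bmp2, Bmp3, Bmp4, Bmp5, Bmp6 and Bmp7) and 4 secreted antagonists (Grem1, Nog, Chrdl1 and Fst). The genes were chosen by name, with earlier results of these data known, and all 10 were found among the 25491 genes of the count table. The cells were mesenchymal progenitor cells of the bone marrow of C57BL/6J mice aged 14 weeks, and every mouse had received a sublethal 7 Gy of radiation 6 weeks before. They were sorted as CD45-, TER119-, CD31-, CD44-, SCA1- and CD51+. One group was wild type and the other Lama4-/-, which lacks the laminin alpha 4 chain of basement membranes, with 3 libraries each. No unirradiated group entered the comparison, so it asks how these transcripts stand between genotypes in stroma that has been irradiated.

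BMPs are secreted dimers of the TGF-beta family. They bind a complex of type I and type II serine/threonine kinase receptors, which phosphorylates SMAD1, SMAD5 and SMAD9, and these enter the nucleus with SMAD4 and switch on targets such as the Id genes. Antagonists bind the ligands outside the cell and keep them from their receptors. In bone and cartilage the pathway is known for driving osteoblast and chondrocyte differentiation, and marrow stroma makes both ligands and antagonists.

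Library totals ran from 6263830 to 15663957 counts, the lowest being wild type replicate 2. Lama4, the deleted gene, had 1281 counts over the wild type libraries and 0 over the Lama4-/- libraries, at least 580-fold lower against a floor of 3 counts over the group, a bound that covers counting error only. Of the markers of the sorted stroma, 12 of 12 were counted, with Col1a1 and Cxcl12 the most abundant, and they summed to 43350 to 56950 CPM in wild type libraries and 27120 to 74730 CPM in Lama4-/- libraries. Most of this sum was Col1a1, at 31851 to 45028 CPM in wild type and 19637 to 69810 CPM in Lama4-/- libraries. Col1a1 also stands in, and leads, the list of osteoblast markers below. Of these 12, 9 had a log2 fold change below 0, and 6, named after their values were seen, had lower groups that did not overlap and an unadjusted p under 0.05 in edgeR: Lepr (-1.50), Pdgfrb (-1.30), Runx2 (-1.29), Kitl (-1.22), Itgav (-0.94) and Pdgfra (-0.92). None of the 6 passed the adjustment in edgeR. DESeq2 called 5 of them, all but Kitl, and 4.64% of all genes given an adjusted p. With the trend of fold change with transcript length removed, as described further on, the 6 ranged from -0.95 (Lepr) to -0.12 (Itgav). Every listed marker in the table had counts in at least 1 library. Cartilage transcripts were abundant in every library: the summed level of 8 chondrocyte markers, led by Col2a1 and Comp, was 87320 to 135800 CPM (counts scaled to a common library total) in the wild type libraries and 61310 to 118700 CPM in the Lama4-/- libraries. All 8 had a log2 fold change below 0. Of them 3, named after their values were seen, had lower groups that did not overlap and an unadjusted p under 0.05 in edgeR: Acan (-1.47), Sox9 (-0.98) and Col9a1 (-0.74). None passed the adjustment in edgeR, and DESeq2 called Acan and Sox9, beside the shares of all genes given for the stromal markers. With the length trend removed, 6 of the 8 were below 0 (median -0.39). Markers of the blood and myeloid list (9 of 10 in the table, led by S100a9 and S100a8) summed to 35.8 to 90.9 CPM in wild type and 110 to 509 CPM in Lama4-/- libraries. Red cell markers (8 of 8, led by Hba-a1 and Hbb-bt) summed to 136 to 920 CPM and 735 to 1883 CPM. Endothelial markers (9 of 10, led by Plvap and Egfl7) summed to 9.76 to 13.4 CPM and 5.16 to 5.74 CPM. Megakaryocyte markers (7 of 8, led by Ppbp and Itga2b) gave 10.6 to 21.7 CPM and 4.89 to 16.4 CPM, and 8 osteoblast markers, led by Col1a1 and Spp1, gave 44900 to 57640 CPM and 32260 to 96330 CPM. The antibody gate was only partly mirrored in RNA: Ptprc (CD45) and Pecam1 (CD31) did not exceed 4.09 and 2.05 CPM, while Cd44 ran from 53.2 to 152 CPM and Itgav (CD51) from 44.5 to 139 CPM. In such bulk samples, fewer cells of a type and less RNA per cell cannot be told apart.

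All 10 genes were expressed and all 10 passed the filter on low counts, so none is missing from the tests. In the comparison of genotypes, 0 of the 10 passed an adjusted p of 0.05 in edgeR's quasi-likelihood test. Of the 14465 tested genes 0.00691% passed, which was 1 gene, the deleted Lama4. In DESeq2 0 of the 10 passed as well, where 4.64% passed. At an unadjusted p under 0.05 in edgeR there were again 0 of the 10 members, beside 12.8% of all tested genes. That count was 1 (Grem1) without a filter, with DESeq2 and with limma voom. Over all genes in those fits it was 2640 of 25491, 2816 of 25491 and 2352 of 14465. With the length trend removed it was 1 (Bmp3), beside 1173 of 14465 genes. With replicate number as a block it was 2 (Grem1 and Chrdl1), beside 1930 of 14465 genes. Of the 10 log2 fold changes, 5 were below 0 and 5 above, with a median of -0.11, beside a median of -0.04 over all tested genes. The ligands lay close to 0, and 3 of the 4 antagonists had lower means in Lama4-/-, Grem1 by the most. The series' design text names 3 mice of each genotype without saying that each library is 1 mouse, so the p-values reflect the spread among these libraries alone, part of which may be technical.

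**Figure D1:**
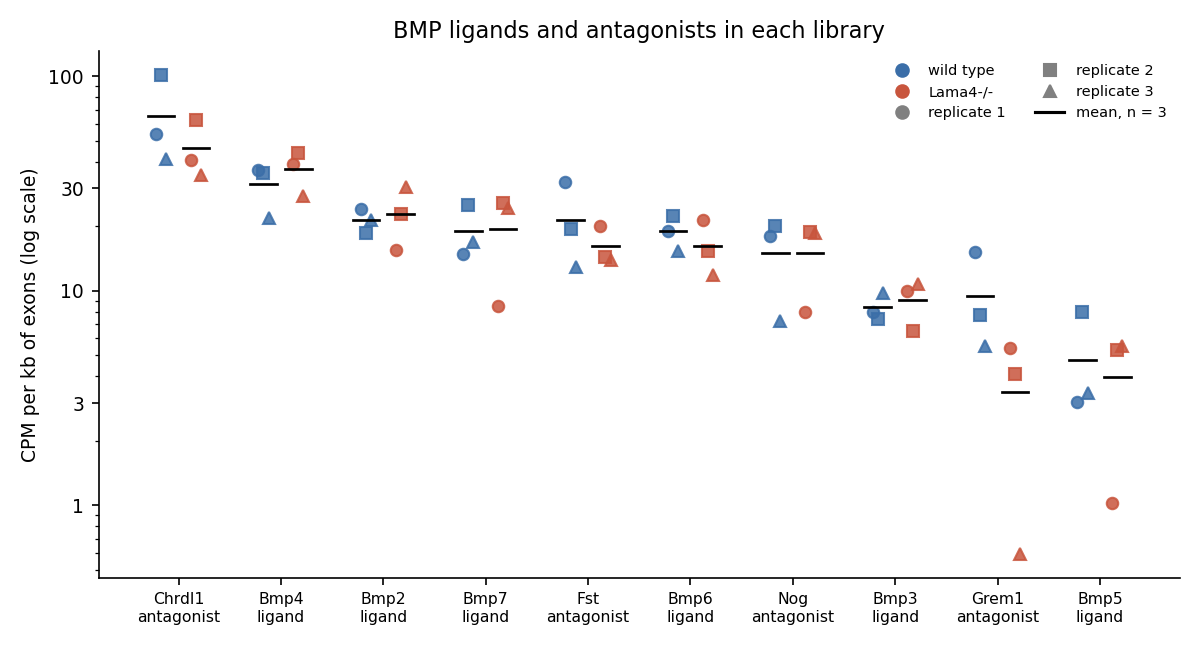
Level of each gene in CPM per kb of exons (log scale) in each of the 6 libraries, wild type in blue and Lama4-/- in red, with the mean of 3 libraries as a bar; genes are ordered by their mean over all libraries. Chrdl1 is the highest gene in both genotypes, and Grem1 alone has groups that do not overlap.

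Levels between genes are compared as CPM divided by the kilobases of the gene's exons. On this scale Chrdl1 was the most abundant of the 10, at a mean of 55.9 CPM per kb over the 6 libraries, followed by Bmp4 at 34.2 and Bmp2 at 22.1. Bmp7 was at 19.2, Fst at 18.8, Bmp6 at 17.6 and Nog at 15.1 CPM per kb. Bmp3 at 8.74, Grem1 at 6.41 and Bmp5 at 4.37 CPM per kb were the lowest. Chrdl1 was above Bmp4 in 6 of 6 libraries, although the gap of their means (21.7) was smaller than the SD of Chrdl1 (24.7). Bmp4 was above Bmp2 in 5 of 6 libraries, by 1.5 times the larger of their SDs over libraries. The step from Nog down to Bmp3 was 1.09 times the larger SD, with Nog higher in 4 of 6 libraries. Every other pair of neighbours in the order differed by less than the larger of their SDs and changed places in at least 2 libraries. With the longest annotated transcript as the length, Chrdl1 rose to 92.2 and Fst to 29.6 CPM per kb, which put Fst above Bmp2; Chrdl1 and Bmp4 stayed first and second.

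Promoter sequence was at hand for 4 of the 10 genes, in RefSeq's table for GRCm38.p6 (Bmp4, Bmp5, Bmp6 and Grem1). Bmp2, Bmp3, Bmp7, Nog, Chrdl1 and Fst had no entry. Those of the most abundant ligand, the scarcest ligand and the antagonist with the largest difference are shown, 5′ to 3′ on the gene's strand, as 240 bases that begin 250 bases before the RefSeq start and leave out the last 10. The windows are chr14:46390680-46390919 (Bmp4, minus strand), chr9:75775115-75775354 (Bmp5, plus strand) and chr2:113758659-113758898 (Grem1, minus strand). Capitals mark matches on either strand to the searched motifs, which may overlap each other. They were GGGCGG, known as the GC box, the GC-rich SMAD motif GGCGCC, the CCAAT box, and as TATA-like motifs TATAAA together with its relative TTTAAA.
Bmp4: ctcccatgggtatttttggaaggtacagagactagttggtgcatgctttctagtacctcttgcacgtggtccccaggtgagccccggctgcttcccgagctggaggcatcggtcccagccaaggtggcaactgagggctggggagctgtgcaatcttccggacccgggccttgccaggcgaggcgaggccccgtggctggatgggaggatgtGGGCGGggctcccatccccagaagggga
Bmp5: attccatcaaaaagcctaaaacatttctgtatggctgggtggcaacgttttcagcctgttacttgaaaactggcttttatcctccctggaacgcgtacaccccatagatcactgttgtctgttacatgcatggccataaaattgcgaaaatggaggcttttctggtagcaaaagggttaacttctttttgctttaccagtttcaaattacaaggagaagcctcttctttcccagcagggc
Grem1: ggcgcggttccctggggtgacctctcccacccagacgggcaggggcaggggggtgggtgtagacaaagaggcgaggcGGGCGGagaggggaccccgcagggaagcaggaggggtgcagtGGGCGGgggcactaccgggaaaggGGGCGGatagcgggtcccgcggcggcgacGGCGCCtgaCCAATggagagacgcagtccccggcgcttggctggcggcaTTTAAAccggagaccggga
The windows differ in base composition: GC content was 72.1% for Grem1 and 63.8% for Bmp4 but 42.9% for Bmp5, higher than in 93.3%, 80.6% and 18.6% of the 32851 promoters in the table. The Grem1 window holds 3 GC boxes, 1 GGCGCC, 1 CCAAT, and a TTTAAA whose first base lies 29 bases before the start. That of Bmp4 holds 1 GC box, 38 bases before the start, and the Bmp5 window none of the motifs searched. Of all promoters, 31.3% hold a GC box, 9.08% a GGCGCC, 33.0% a CCAAT, 12.1% a TATAAA and 11.8% a TTTAAA in the same window. A match describes the letters and not a bound site.

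Bmp4, an osteogenic ligand closely related to Bmp2, lies on chromosome 14 (46383520 to 46390669, minus strand, GRCm38). It was counted at 82.6, 79.8 and 49.2 CPM in the 3 wild type libraries and at 88.1, 98.9 and 62.3 CPM in the 3 Lama4-/- libraries. The groups overlapped, with replicate 3 the lowest library of each genotype. The ratio of Lama4-/- to wild type was 1.18 with a 95% interval of 0.746 to 1.86 (edgeR quasi-likelihood test, adjusted p = 0.792). Bmp2, which is required for fracture repair, lies on chromosome 2 (133552159 to 133562885, plus strand). It was at 85.3, 66.1 and 75.998 CPM in the wild type libraries and 54.9, 81.0 and 108 CPM in the Lama4-/- libraries. The Lama4-/- libraries held both its lowest and its highest value. Its ratio was 1.07, with an interval of 0.682 to 1.69 (adjusted p = 0.921).

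Bmp6 and Bmp7 belong to a subgroup of ligands with Bmp5. Bmp6 (chromosome 13, 38345107 to 38500302, plus strand), which in the liver controls the iron hormone hepcidin, was at 74.3, 87.3 and 59.9 CPM in the wild type libraries and 83.1, 60.1 and 46.0 CPM in the Lama4-/- libraries. The groups overlapped, and the ratio was 0.855 with an interval of 0.545 to 1.34 (edgeR, adjusted p = 0.800). Its exons share 224 bases with Txndc5 on the other strand, which was at 518 and 500.5 CPM in the 2 genotypes; the library kit does not mark strand, so reads there cannot be assigned to either gene by strand. Bmp7 (chromosome 2, 172868012 to 172940321, minus strand), needed for kidney and eye development, was at 59.4, 101 and 68.1 CPM in the wild type libraries and 34.3, 103 and 97.9 CPM in the Lama4-/- libraries. Lama4-/- replicate 1 was far below the other libraries of its genotype. The interval of the ratio was accordingly wide, 0.517 to 2.06 around 1.03 (adjusted p = 0.977).

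Bmp5 (chromosome 9, 75775364 to 75900310, plus strand), a ligand known from the short-ear mouse for its part in skeletal growth, was the scarcest of the 6 ligands per length. It was at 12.3, 32.0 and 13.5 CPM in the wild type libraries and 4.14, 21.3 and 22.3 CPM in the Lama4-/- libraries. Wild type replicate 2 was highest and Lama4-/- replicate 1 lowest, a ratio of 7.73 between them. The ratio of genotypes was 0.829 with an interval of 0.275 to 2.49 (edgeR, adjusted p = 0.915), so that a change of more than 2-fold either way lay within the interval. Of the exon bases of Bmp5, 46.7% overlap the antisense gene Gm26903, which held 26 counts over all libraries; how reads in shared exons were counted is not given in the sources used here, so the level of Bmp5 is uncertain. Bmp3 (chromosome 5, 98854415 to 98884396, plus strand), a family member known to oppose osteogenic BMPs, was the steadiest of the 10. It was at 58.9, 54.97 and 72.7 CPM in the wild type libraries and 73.8, 48.2 and 79.4 CPM in the Lama4-/- libraries, a ratio of 1.08 with an interval of 0.712 to 1.64 (adjusted p = 0.909).

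For Bmp2, Bmp3, Bmp4 and Bmp6 the 95% intervals thus ran from 0.545 to 1.86 at the widest, and a 2-fold change in either direction lay outside them. For Bmp5 both lay inside, and for Bmp7 a 2-fold increase did. These intervals are not adjusted for the number of genes.

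**Figure D2:**
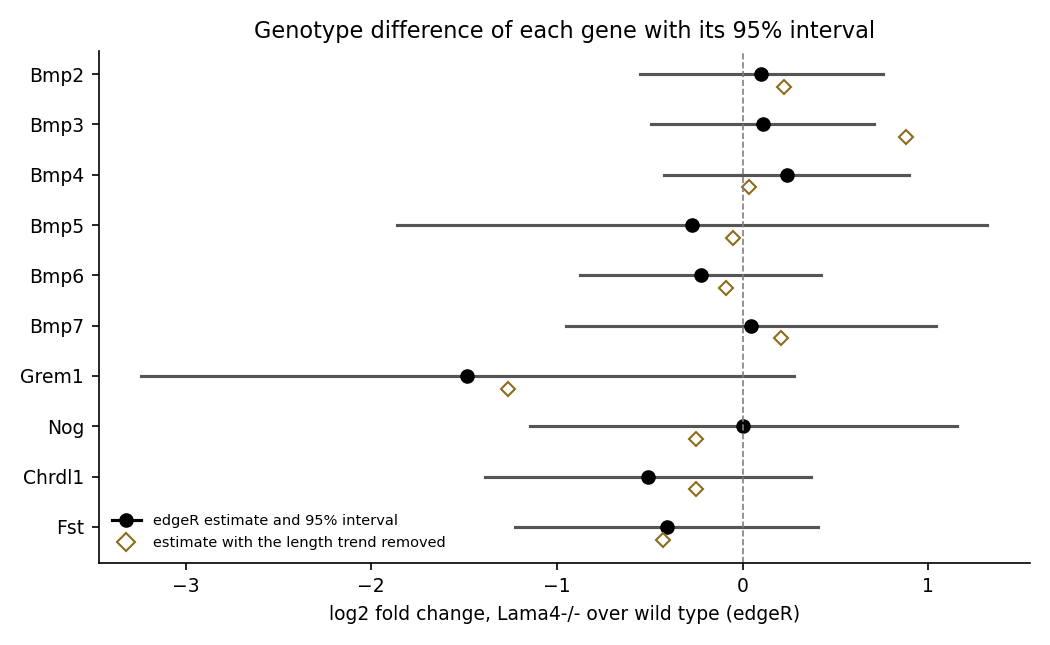
Log2 fold change of Lama4-/- over wild type for each gene (black point) with its 95% interval (line) from edgeR, 3 libraries against 3, and the estimate after removal of the transcript length trend (open diamond). Every interval spans 0; that of Grem1, from -3.24 to 0.28, is the widest.

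Among the antagonists, Grem1 (gremlin 1, a cysteine-knot protein that sequesters BMP2, BMP4 and BMP7 and marks a skeletal stem cell population) had the largest difference of the 10 genes. It lies on chromosome 2 (113746164 to 113758646, minus strand), behind the GC-rich promoter window shown above. It was counted 841, 186 and 296 times in the wild type libraries and 375, 227 and 34 times in the Lama4-/- libraries, which gives 62.9, 31.9 and 22.8 CPM against 22.5, 17.1 and 2.47 CPM. Every Lama4-/- library was below every wild type library, but the lowest wild type value (22.8) and the highest Lama4-/- value (22.5) nearly met. Such a separation downward was found in 12% of all tested genes, upward in 10.3% and in either direction in 22.3%; among the 10 genes it was found in Grem1 alone. The means were 39.2 ± 21.02 and 14.02 ± 10.4 CPM (SD, n = 3). The log2 fold change was -1.48 (SE 0.75, 95% interval -3.24 to 0.28; edgeR, adjusted p = 0.469). The unadjusted p of the same edgeR test was 0.087, so the difference did not pass either threshold. DESeq2 gave an adjusted p of 0.259, and the authors' deposited table lists a shrunken log2 fold change of -1.02 with a p of 0.0412 and an adjusted p of 0.216. Without wild type replicate 1 the log2 fold change was -0.95, and without Lama4-/- replicate 3 it was -0.99. The summed blood and myeloid markers and the summed endothelial markers also separated the genotypes, at the levels given above. Of 7 tested blood and myeloid markers, 6 were above 0 on the log2 fold change scale. The endothelial sum is low and its genes were mixed. Of 5 tested, 3 were below 0 and 2 above, among the latter the most abundant, Plvap (0.37), and 0 had an unadjusted p under 0.05 in edgeR. The 6 stromal and 3 chondrocyte markers named there separated the genotypes too, but were picked for that. So did the sum of the 5 sort-gate genes, at 179 to 297 CPM against 114 to 164 CPM. That sum adds the CD51 gene Itgav to genes of the negative gates, and Cd44 alone had groups that overlapped. With the length trend removed, Itgav was at -0.12 and Cd44 at -0.32. The part of these marker differences in the Grem1 values was not tested.

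Chrdl1 (chordin-like 1, on chromosome X, 143285674 to 143394262, minus strand) binds BMP4 and related ligands through cysteine-rich repeats like those of chordin. It was at 365, 687 and 278 CPM in the wild type libraries and 275, 424 and 235 CPM in the Lama4-/- libraries. The groups overlapped, and replicate 2 was the highest library of each genotype. The log2 fold change was -0.51 (SE 0.38, 95% interval -1.39 to 0.37; edgeR, adjusted p = 0.638), and without wild type replicate 2 it was -0.04. The same 2 libraries had the highest summed chondrocyte markers of their genotypes, 135800 CPM in wild type libraries and 118700 CPM in Lama4-/- libraries, beside 87320 to 96630 and 61310 to 61640 CPM in the other libraries; the part of this in the Chrdl1 values was not tested.

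Fst (follistatin, chromosome 13, 114452290 to 114458951, minus strand), which neutralises activins above all and some BMPs, was at 147, 89.4 and 59.2 CPM in the wild type libraries and 92.4, 65.96 and 64.2 CPM in the Lama4-/- libraries. Wild type replicate 1 stood above the rest. The log2 fold change was -0.41 (SE 0.35; edgeR, adjusted p = 0.691) and went to 0.02 without that library. Nog (noggin, chromosome 11, 89300638 to 89302332, minus strand, a gene of 1 exon) blocks the receptor-binding surfaces of BMP2 and BMP4. It was at 30.4, 33.9 and 12.3 CPM in the wild type libraries and 13.5, 31.7 and 31.4 CPM in the Lama4-/- libraries. The means were nearly equal, 25.5 ± 11.6 and 25.6 ± 10.4 CPM (SD, n = 3), but 1 library of each genotype was well below its 2 companions, and the interval of the ratio ran from 0.451 to 2.23 (adjusted p = 0.997).

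Adding the genes by role gave a steady ligand total and a less steady antagonist total. The 6 ligands summed to 106, 117 and 88.7 CPM per kb in wild type and to 95.5, 120 and 111 CPM per kb in Lama4-/-, means of 104 ± 14.2 and 109 ± 12.2 (SD, n = 3). The 4 antagonists summed to 119, 149 and 66.8 CPM per kb in wild type and to 74.2, 100.03 and 67.9 CPM per kb in Lama4-/-. The groups overlapped in both sums. The antagonist sum was 1.13, 1.27 and 0.753 times the ligand sum in the wild type libraries and 0.777, 0.836 and 0.614 times in the Lama4-/- libraries, so that wild type replicate 3 lay within the range of Lama4-/-. Chrdl1 alone made up 45.3% to 68.3% of the antagonist sum. These sums depend on the length used. With the longest annotated transcript, a choice made after seeing the data, the antagonist sum was 1.53, 1.80 and 1.06 times the ligand sum in wild type and 1.09, 1.16 and 0.835 times in Lama4-/-, above the ligand sum in 5 of 6 libraries, and Chrdl1 made up 51.6% to 74.2% of it. These sums have no test here, because the genes were chosen with results of these data known.

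The share of each ligand in the ligand sum was not tested between genotypes, and the SD of each of the 6 shares was larger among the Lama4-/- libraries. Bmp4 made up 29.9% ± 5.07 of the ligand sum in wild type and 34.3% ± 8.28 in Lama4-/- (SD, n = 3), Bmp2 20.9% ± 4.39 and 20.9% ± 5.93, and Bmp7 18.2% ± 3.81 and 17.5% ± 7.38. Bmp6 made up 18.2% ± 0.926 and 15.3% ± 6.18, with 22.3%, 12.9% and 10.7% in the 3 Lama4-/- libraries, Bmp3 8.32% ± 2.45 and 8.53% ± 2.70, and Bmp5 4.49% ± 2.05 and 3.50% ± 2.12. Bmp4 was the largest ligand share in 5 of the 6 libraries, and in Lama4-/- replicate 3 Bmp2 was, at 27.6% against 25.1%.

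**Figure D3:**
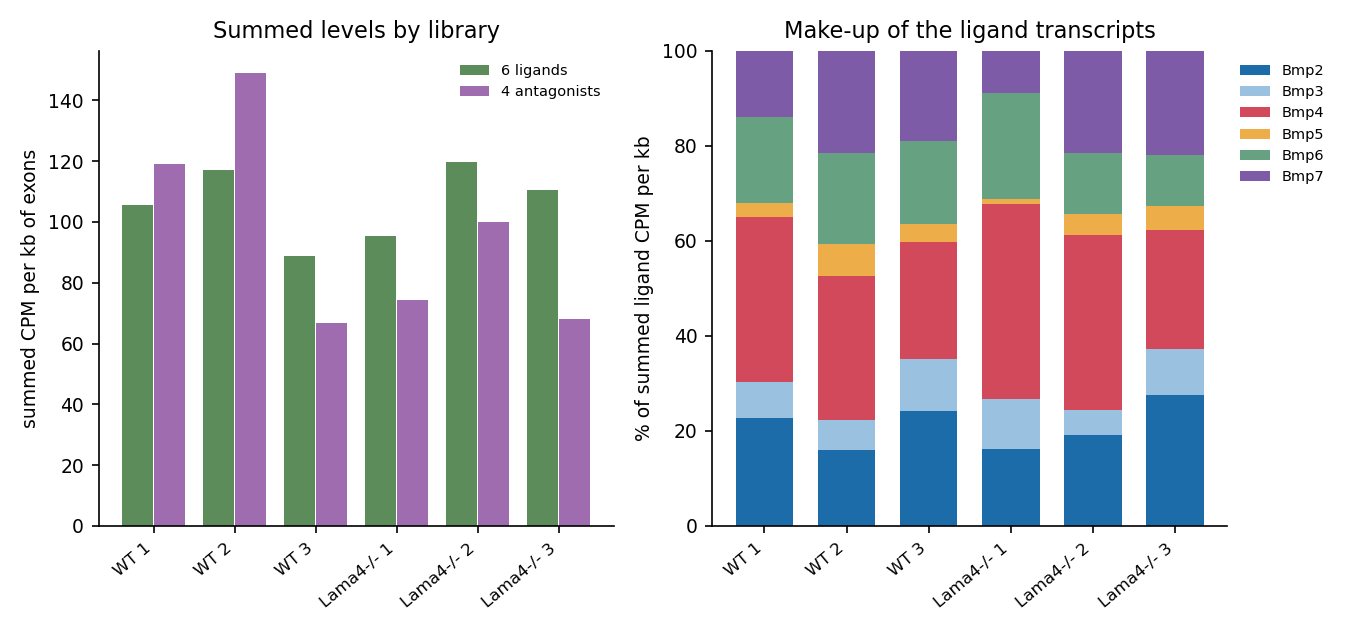
Left, summed CPM per kb of the 6 ligands (green) and the 4 antagonists (purple) in each library; right, the share of each ligand in the ligand sum of that library, in percent. With exon lengths as used here, the antagonist bar exceeds the ligand bar in wild type replicates 1 and 2 only, and Bmp4 is the largest ligand share in every library but Lama4-/- replicate 3.

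The genes differed in how much they varied between libraries of 1 genotype. Grem1 had a within-genotype SD of 1.31 on the log2 CPM scale and Bmp5 of 1.10, where the 500 tested genes nearest to each in abundance had median SDs of 0.47 and 0.55. Nog was at 0.75, Bmp7 at 0.69, Chrdl1 at 0.57 and Fst at 0.51, each above the median of its own 500 neighbours (0.27 to 0.46). Bmp4 (0.38), Bmp2 (0.37), Bmp6 (0.36) and Bmp3 (0.31) were close to theirs (0.33, 0.33, 0.34 and 0.34). Counting error from read numbers alone was at most 17.1%, in the library with the fewest counts, Lama4-/- replicate 3 for Grem1. The cDNA was amplified, so the sampling error of the starting RNA may be larger and was not measured.

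Some genes followed each other from library to library. Of the 45 pairs, Bmp5 and Bmp7 were the most alike, both lowest in Lama4-/- replicate 1 and both among their 3 highest values in wild type replicate 2 and in Lama4-/- replicates 2 and 3. Pearson's r of their log2 CPM over the 6 libraries was 0.975 (exact permutation p = 0.00556, adjusted p = 0.250 over the 45 pairs) and Spearman's rho 0.829 (exact permutation p = 0.0583, adjusted p = 0.868). With the 2 libraries farthest from the median of Bmp5 left out, r was 0.987 over 4 libraries. The largest rank correlation was negative, between Bmp3 and Chrdl1, with a rho of -0.943 (exact permutation p = 0.0167, adjusted p = 0.752) and an r of -0.807 (exact permutation p = 0.0417, adjusted p = 0.531; -0.898 without the 2 libraries farthest from the median of Bmp3). No pair passed the adjustment, and as deviations from the genotype means (log2 CPM with no prior count, 6 libraries) r was 0.992 for Bmp5 with Bmp7 and -0.827 for Bmp3 with Chrdl1. Outside the 10 genes, the library profile of Bmp4 was most like those of Serpinb9 (r = 0.984), Ndn (r = 0.984) and Prmt5 (r = 0.981), and that of Chrdl1 like those of Loxl4 (r = 0.990), Gjc3 (r = 0.985) and Sf1 (r = 0.978), each over 6 libraries. These are the highest of 9978 genes compared, of which 0.852% had an r over 0.9 with Bmp4 and 1.01% with Chrdl1, and they are given as a description.

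Fold changes in these data followed transcript length: across 14463 tested genes, which are not independent replicates, the rank correlation (Spearman) between transcript length and log2 fold change was -0.46. The 10 genes span transcripts of 1695 bases (Nog) to 6609 bases (Bmp3). Bmp3 was the member on which this bore most. Its log2 fold change of 0.11 stood beside a median of -0.58 in the decile of genes of like length, and with the length trend removed it was 0.88 (edgeR, adjusted p = 0.530). Removal of the trend moved Grem1 to -1.26, Chrdl1 to -0.25, Fst to -0.43, Bmp4 to 0.03 and Nog to -0.25, and 0 of the 10 passed the adjustment. All 4 antagonists were then below 0 (median -0.34), and 4 of the 6 ligands above (median 0.12), beside a median of 0.02 over all tested genes.

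The rest of the pathway was read from 6 lists chosen by role, 73 genes of which 58 were tested. In edgeR 0 of the 58 passed the adjustment. Of them 5 had an unadjusted p under 0.05, 4 lower and 1 higher, beside 8.34% lower and 4.45% higher among all tested genes. On the log2 fold change scale 34 of the 58 were below 0 (58.6%), beside 52% of all tested genes. With the length trend removed the median over all tested genes was 0.02. Of the receptors and coreceptors, 8 of 12 tested genes were below 0 on the log2 fold change scale (median -0.24), but 5 of 12 with the length trend removed (median 0.14). Bmpr2, the main type II receptor for BMPs, was at 63.3, 22.6 and 105 CPM in the wild type libraries and 14.0, 10.003 and 18.007 CPM in the Lama4-/- libraries, so that the groups did not overlap. Its log2 fold change was -2.19 (SE 0.55; edgeR, adjusted p = 0.238; DESeq2, adjusted p = 0.00564). Its longest transcript has 12899 bases, and removal of the length trend left -0.79 (adjusted p = 0.700). Bambi, a pseudoreceptor that lacks the kinase domain and dampens BMP and TGF-beta signals, stood higher in Lama4-/-, at 199, 154 and 175 CPM against 344, 273 and 468 CPM. Its log2 fold change was 1.04 (SE 0.24; edgeR, adjusted p = 0.237; DESeq2, adjusted p = 0.00761). Removal of the length trend gave 1.53 (adjusted p = 0.436). Bmpr2 and Bambi were the 2 pathway genes that DESeq2 called, of 68 in its fit. Over all genes given an adjusted p, DESeq2 called 4.64%. The type I receptor Acvr1 was at 51.6 ± 13.2 and 23.6 ± 12.2 CPM (edgeR, adjusted p = 0.328). The coreceptor Neo1, named after its values were seen as the remaining receptor gene with an unadjusted p under 0.05, was at 183 ± 84.7 and 104 ± 18.1 CPM (SD, n = 3), with a log2 fold change of -0.82 that was -0.04 once the length trend was taken out.

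Other ligands were mostly scarce: 7 of 15 were tested, 5 with a negative log2 fold change (median -0.55), or 4 with the length trend removed (median -0.81). Gdf10, a relative of Bmp3, was the most abundant of the 3 named here, with means of 171 ± 72.4 and 129 ± 41.6 CPM in wild type and Lama4-/-. Gdf15, a stress-induced divergent member of the family, was at 17.2 ± 8.70 and 24.7 ± 4.17 CPM, and Bmp8a, a ligand of the BMP8 pair of genes, at 40.7 ± 2.24 and 49.4 ± 12.2 CPM. Of other secreted antagonists and modulators, 12 of 17 were tested and 8 had a negative log2 fold change (median -0.50), or 11 with the length trend removed (median -0.18). Crim1, a transmembrane protein with chordin-like repeats that binds BMPs, had groups that did not overlap, at 51.8, 63.4 and 64.7 CPM against 32.2, 29.7 and 44.1 CPM (log2 fold change -0.76, SE 0.25; edgeR, adjusted p = 0.294). Removal of the length trend left -0.09. Kcp, a chordin-like protein, was at 4.97 ± 4.57 and 0.351 ± 0.608 CPM, and Twsg1, which binds BMPs together with chordin, at 331 ± 115 and 232 ± 79.9 CPM (SD, n = 3).

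Downstream, 7 of 8 tested SMAD and SMURF genes were below 0 on the log2 fold change scale (median -0.41), and 5 of 8 with the length trend removed (median -0.016). Smad1, a transducer of the BMP signal, had means of 72.3 ± 11.98 and 49.7 ± 11.8 CPM in the 2 genotypes (edgeR, adjusted p = 0.430). The ubiquitin ligases Smurf1 and Smurf2, which target BMP receptors and SMADs for degradation, were at 21.1 ± 4.47 against 13.5 ± 6.06 CPM and 64.6 ± 29.5 against 43.7 ± 12.1 CPM. Of the target genes 9 of 13 were above 0, with a median of 0.13, but only 5 of 13 after removal of the length trend (median -0.0027). Id3, a dominant-negative helix-loop-helix factor and direct BMP target, was at 1193, 854 and 739 CPM in the wild type libraries and 1423, 1154 and 1379 CPM in the Lama4-/- libraries (log2 fold change 0.51, SE 0.23; edgeR, adjusted p = 0.410). Its relative Id1 was at 117 ± 8.39 and 147 ± 11.2 CPM (adjusted p = 0.483), and Msx2, a homeobox gene of skull and tooth, at 3.09 ± 0.781 and 7.31 ± 2.83 CPM (adjusted p = 0.481). The transcripts of Id1 and Id3 are short, and with the length trend removed the log2 fold change was 0.20 for Id3 and close to 0 for Id1. Of the proteases that mature the ligands or cleave chordin, 6 of 7 were tested, 4 above 0 (median 0.17), and again 4 after removal of the length trend (median 0.61). Bmp1, a chordin- and procollagen-cleaving protease and not a BMP ligand, was at 692 ± 84.1 and 775 ± 188 CPM (SD, n = 3). The proprotein convertases Pcsk5 and Pcsk7 were at 91.3 ± 36.6 against 108 ± 20.2 CPM and 39.3 ± 8.92 against 25.2 ± 8.41 CPM.

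**Figure D4:**
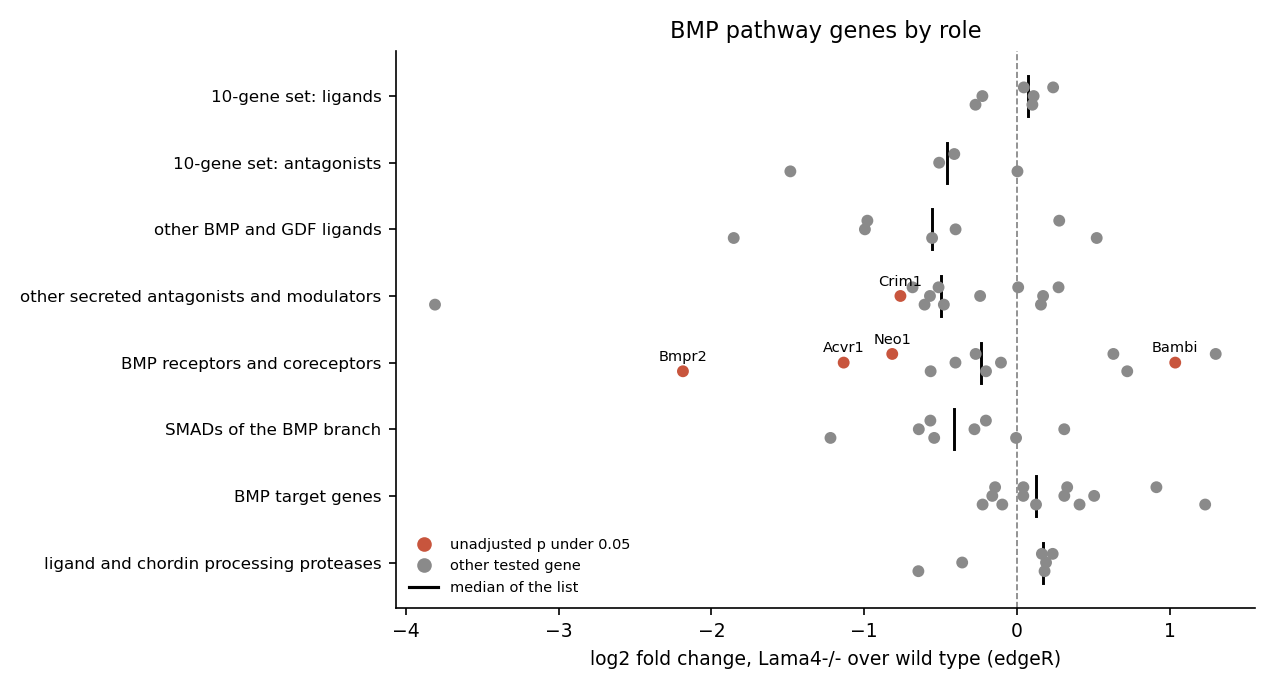
Log2 fold change of Lama4-/- over wild type (edgeR) for each tested gene of the 10-gene set and of 6 other BMP pathway lists, with the list median as a bar; red points have an unadjusted p under 0.05 and are named. The 5 red points are Bambi, Bmpr2, Acvr1, Neo1 and Crim1, none of them a member of the 10-gene set, and none passed the adjustment over all tested genes.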

How the data were processed

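Libraries came from SMART-Seq v4 amplified cDNA tagged with Nextera XT and sequenced single-end at 75 bp, per the labels' protocols; this chemistry keeps no strand information. Per the submitters' processing notes, the tools were STAR 2.6.1d, Subread and featureCounts, DESeq2, FastQC 0.11.8 and MultiQC 1.7, on GRCm38 or mm10; no role or parameter of any of them is stated. The deposited table has 2 blocks of values whose headings appear swapped. Whole numbers, taken as the authors' raw counts, stand under the normalized heading. A deposited signal proportional to those counts in each library stands under the raw heading and entered no test. The remaining columns, per the file headers, are the authors' DESeq2 Wald test with a beta prior: the signal averaged over libraries, log2 fold changes (shrunken by that prior) and their errors, the Wald score, and p-values.

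Of the gene identifiers, 99.9% matched GENCODE M21 (GRCm38), which gave positions and lengths. Genes kept by edgeR's filterByExpr (14465) were compared with the robust quasi-likelihood test of edgeR 4.0.16 (R 4.3.3, TMM scaling, no covariate, 3 libraries against 3), p-values being adjusted by Benjamini-Hochberg across every tested gene at a threshold of 0.05. CPM uses TMM-adjusted totals, and the log2 CPM used for SDs and correlations a prior count of 2. Standard errors are the coefficient divided by the root of F. The code was checked on simulated counts. Alternatives were other scalings and filters, DESeq2 1.42.0, limma 3.58.1 voom, no robust moderation, a replicate block, each library left out, and removal of the length trend (lowess, span 0.3). The members and lists were chosen with earlier results of these data known. Named genes were all members, the 3 smallest p in each pathway list, the 2 most abundant markers in each list and the 3 profiles most like the top ligand and top antagonist (mean of at least 5 CPM).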

Additional observations from a re-analysis of the deposited data

How the results depend on the processing

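None of the 10 genes passed an adjusted p of 0.05 under any of the 15 alternatives run, and the lowest adjusted p of a member was 0.259 (Grem1, DESeq2). Bmp4, Bmp6, Grem1 and Chrdl1 kept their direction in all 15. With one library left out at a time, the log2 fold change of Bmp2 ranged from -0.16 to 0.33, Bmp3 from -0.028 to 0.30, Bmp5 from -0.59 to 0.30, Bmp7 from -0.21 to 0.42, Nog from -0.32 to 0.32 and Fst from -0.67 to 0.016. Directions also turned for Bmp2 (-0.035) and Bmp7 (-0.038) with limma voom, for Bmp7 (-0.074) with the replicate block and for Nog (-0.25) with the length trend removed; the cause was not tested. The number of genes called, 1 (Lama4) as reported, was 0 with upper-quartile scaling, limma voom, no robust moderation, the replicate block or the length trend removed, 12 without a filter and 741 with DESeq2, and 0 to 1 with a library left out. DESeq2 called 2 of 68 other pathway genes, beside 4.64% of all genes given an adjusted p, where edgeR called 0 of 58. The labels do not say that replicate numbers pair the libraries, and the correlations of same-numbered deviations were 0.04, 0.13 and 0.05; every library correlated best with its own number, a hint from the data only. With the replicate block 2 members had an unadjusted p under 0.05, Grem1 (log2 fold change -1.815, adjusted p = 0.314) and Chrdl1 (-0.45, adjusted p = 0.339). Of all 14465 tested genes 1930 did, and no member or pathway gene was called. Chrdl1 and Fst moved to 92.2 and 29.6 CPM per kb with the longest transcript as the length. The mean antagonist to ligand ratio moved from 1.05 to 1.46 in wild type and from 0.743 to 1.03 in Lama4-/- with that length, an alternative chosen after seeing the data for the ratio.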
